A study of Arabidopsis thaliana with 6 samples.

Results

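WRKY genes encode a plant family of transcription factors, and 48 of the 19955 genes in the deposited table carry the word WRKY, in any letter case, in their description. Of these, 45 are numbered WRKY genes by their RefSeq symbol or synonym. The other 3 encode partners of WRKY proteins: MEKK1, a kinase at the head of a MAP kinase cascade, MKS1, a nuclear VQ-motif substrate of MPK4, and ESP, the epithiospecifier protein of glucosinolate breakdown, which binds WRKY53. A further 10 numbered WRKY genes stand in the table without the word in their description and are given separately. RefSeq lists 72 numbered WRKY genes, and the 17 that are in neither set were not analysed here.

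Whole 7-day-old seedlings of Arabidopsis thaliana, ecotype Col-0, were compared by RNA sequencing between the wild type (WT, 3 libraries) and a mir163 mutant (3 libraries). Both genotypes grew untreated on a long-day cycle. The labels call the libraries biological replicates and do not name the mutant allele. The authors deposited 1 FPKM per gene and genotype (sequenced fragments divided by transcript length and by library total), with their own log2 ratio and p-value, the latter unadjusted. The scatter of the 3 libraries is therefore not shown for any value, and depth is unknown.

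Green-tissue markers were at an FPKM of 2267 or more in both genotypes, and 4 of the 5 were lower in mir163. Their median change in log2(FPKM + 1) was -0.26, and their lowest unadjusted p in the authors' deposited table was 0.498. All 5 root markers were present, PRP3 at 84.8 in WT and 84.6 in mir163. Of these, 3 were higher and 2 lower, with a median change of 0.0020. Seed markers were low: 4 of 5 were in the table, the highest being CRA1 at 1.43 in WT against 7.71 in mir163, and all 4 were higher in mir163. CRA1 was 5.38-fold higher, with an unadjusted p of 0.00125 in the authors' deposited table. Its adjusted p by Benjamini-Hochberg over all genes was 0.9996. EM6, OLEO1 and CRU3 had unadjusted p-values of 0.141, 0.401 and 0.536 in the authors' deposited table. Of 5 flower markers, PI and SEP3 were in the table, SEP3 at 11.1 and 18.01. CRU3 and OLEO1, of the seed markers, and PI reached an FPKM of 1 in mir163 only. The part of these markers in the results below was not tested.

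The WRKY domain binds DNA through a conserved heptapeptide and a zinc finger, and recognises the W box, TTGACC or TTGACT. Group I proteins typically carry a pair of such domains. The groups IIa to IIe and III carry a single one and differ in their zinc finger and in motifs outside the domain. In Arabidopsis the family is best known for immune signalling downstream of MAP kinases and salicylic acid, and also acts in senescence, abiotic stress, nutrient supply and development. Many WRKY genes are themselves induced by pathogens and carry W boxes.

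The heptapeptide was sought in the longest annotated protein of each gene. All 7 members of group I held 2 copies and each of the other 38 held 1. It read WRKYGQK in 43 genes and WRKYGKK in the other 2, WRKY50 and WRKY51. The coding bases are shown for the genes on which the results turn, in capitals for the 21 bases of the heptapeptide with 15 bases on each side, from the RefSeq annotation of TAIR10.1. WRKY22 and WRKY29 are the pair that differed most. WRKY13, WRKY70, WRKY47 and WRKY28 are the other WRKY genes chosen by description, at least 1.5-fold apart, that reached an FPKM of 1. WRKY15 was the most abundant, and WRKY50 shows the variant heptapeptide.
WRKY22: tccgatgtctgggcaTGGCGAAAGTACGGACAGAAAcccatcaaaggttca
WRKY29: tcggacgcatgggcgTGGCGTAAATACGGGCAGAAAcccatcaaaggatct
WRKY13: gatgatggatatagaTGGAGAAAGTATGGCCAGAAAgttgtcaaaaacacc
WRKY70: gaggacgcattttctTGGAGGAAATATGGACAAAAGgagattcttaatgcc
WRKY47: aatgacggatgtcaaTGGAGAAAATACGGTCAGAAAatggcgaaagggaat
WRKY28: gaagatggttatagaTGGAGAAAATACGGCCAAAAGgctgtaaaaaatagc
WRKY15: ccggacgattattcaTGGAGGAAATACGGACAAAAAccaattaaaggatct
WRKY50: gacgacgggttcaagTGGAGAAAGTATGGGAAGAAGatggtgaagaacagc

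A gene was tested where its FPKM reached 1 in a genotype, which kept 44 of the 48 genes. WRKY30, WRKY41, WRKY51 and WRKY12 stayed below this level in both. WRKY13 was kept by its mir163 value only, so the filter fixed its direction. Of the 44 tested, 20 were higher in mir163 and 24 lower, and their median change in log2(FPKM + 1) was -0.0080, beside 0.0064 for all 19264 genes tested.

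No WRKY-described gene passed the authors' p-value adjusted by Benjamini-Hochberg over all genes, where the share called among all genes was 0.0% and the lowest adjusted p was 0.0876. Each of the 44 had an adjusted p of 0.9996. At an unadjusted p under 0.05, 1 of them was lower, WRKY22, against 0.327% of all genes tested, and 0 were higher, against 0.67%. A ratio of at least 1.5 was seen in 3 genes that were higher in mir163 (WRKY13, WRKY70 and ESP; 3.55% of all genes) and in 3 that were lower (WRKY22, WRKY47 and WRKY28; 3.33% of all genes). Each group of 3 makes up 6.82% of the 44. The p-values of all genes were also rescaled so that their median was 0.5, a choice made after seeing the data. WRKY13, whose direction the filter fixed, was then called higher (2.27% of the 44, beside 1.95% of all genes). WRKY22 and WRKY47 were called lower (4.55% of the 44, beside 1.38%). What spread the deposited p-values measure is unknown, so the error rate of these rescaled calls is unknown as well.

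**Figure D1:**
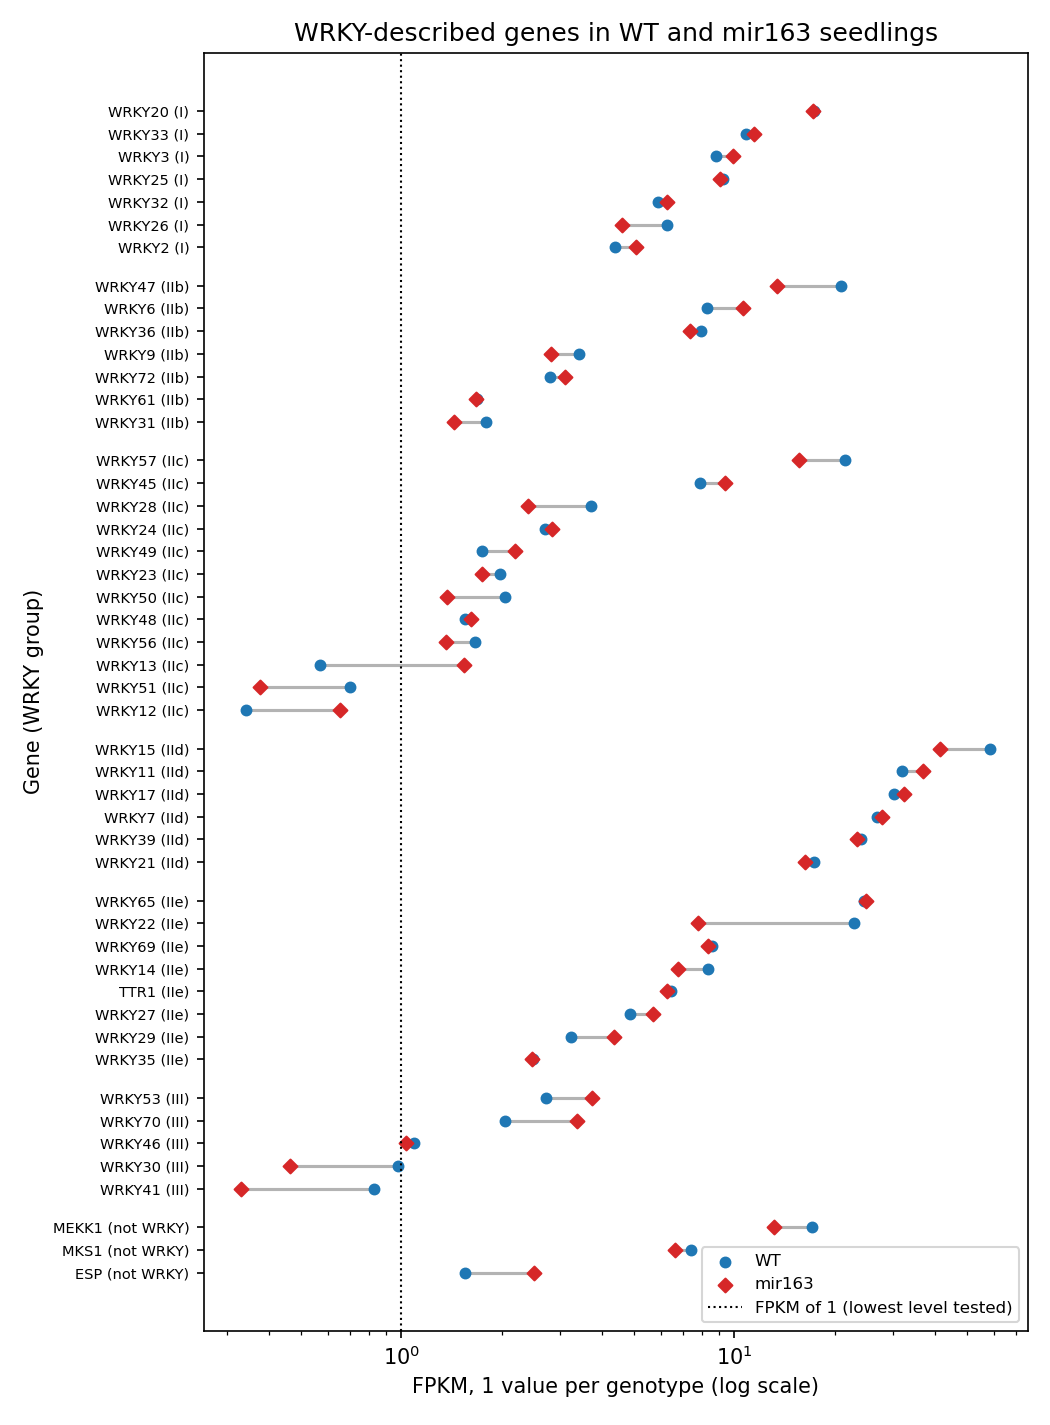
FPKM of the 48 WRKY-described genes in WT (circles) and mir163 (diamonds) on a log axis, ordered by WRKY group and level, with 1 value per genotype and no error bars because the libraries were combined. WRKY22 has the widest gap among genes above an FPKM of 2, at 22.8 and 7.77, and group IId has the highest median level, 29.2.

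WRKY22 (AT4G01250, group IIe) acts downstream of MAP kinases in the response to bacterial flagellin and is also known for a role in leaf senescence induced by darkness. Its FPKM was 22.8 in WT against 7.77 in mir163, 2.93-fold lower in the mutant. The authors' deposited table lists it with a log2 ratio of -1.55 and an unadjusted p of 0.0096. Among all genes tested, 74 (0.384%) had a p at least as low, and 88 (0.457%) had a ratio at least as far below 1. Fewer cells that express a gene and less RNA per cell cannot be told apart in whole seedlings.

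WRKY22 lies on chromosome 4, positions 522530 to 524249 of TAIR10.1, minus strand, in 3 coding exons, and no annotated gene overlaps it. WRKY47 lies on the same chromosome, at positions 744804 to 748554, and was also lower in mir163. None of their tested neighbours was as low. The 5 tested genes on each side of WRKY22, from position 490749 to 549413, had log2 changes between -0.13 and 0.24, and their lowest unadjusted p in the authors' deposited table was 0.559. Those around WRKY47 lay between -0.36 and 0.60, with a lowest p of 0.120.

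**Figure D2:**
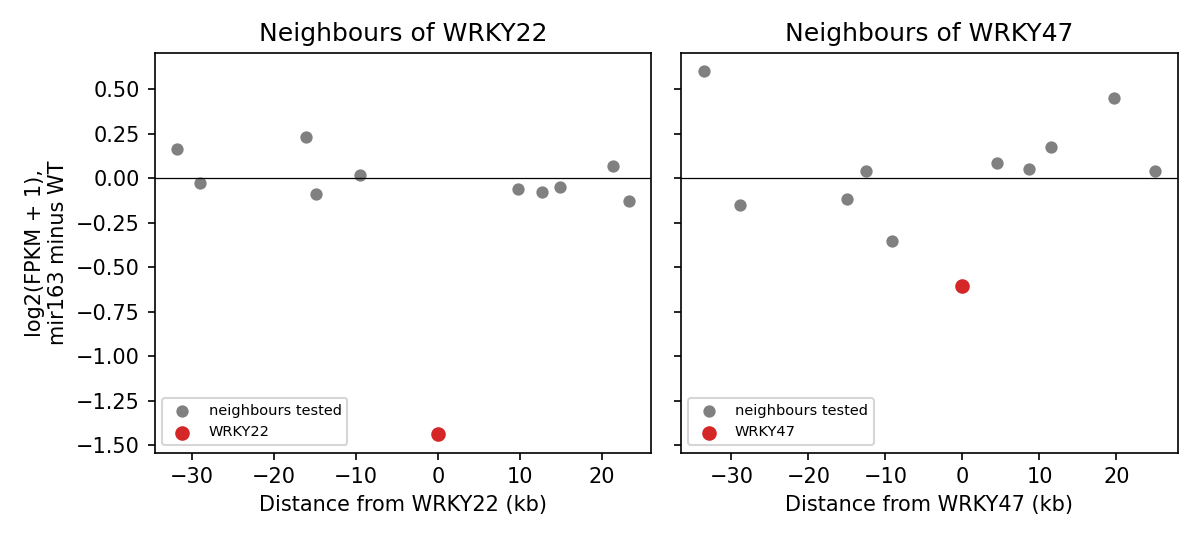
Change in log2(FPKM + 1), mir163 minus WT, of WRKY22 (left) and WRKY47 (right) and of the 5 tested genes on each side, against distance from the gene in kb. WRKY22 stands at -1.44 while its 10 neighbours lie between -0.13 and 0.24.

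WRKY29 and WRKY27, the closest relatives of WRKY22 among the WRKY genes of the table, did not have lower values in mir163. Pairwise global alignment of the annotated proteins placed WRKY29 nearest, with 38.5% identity, and WRKY27 next, with 37.0%. WRKY29, which like WRKY22 acts below the flagellin receptor, was at 3.23 in WT against 4.36 in mir163. WRKY27, which affects the symptoms of bacterial wilt, was at 4.86 and 5.69. Thus both values were higher in mir163, with unadjusted p-values of 0.372 and 0.575 in the authors' deposited table. The next relatives, WRKY14 and WRKY35 at 29.7% and 29.6% identity, were lower, with changes of -0.26 and -0.0082 in log2(FPKM + 1). Part of WRKY29, 251 bases, overlaps the annotated gene GH9B15. The labels do not state whether reads were counted by strand, so its level is uncertain to that extent.

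Of the other members of group IIe, WRKY14 alone was more than 1.2-fold apart. WRKY65 was the highest of the group at 24.4 and 24.9, and WRKY69 stood at 8.57 and 8.33. WRKY14 was at 8.32 and 6.78. TTR1, which is WRKY16 and joins a WRKY domain to an immune receptor of the TIR-NBS-LRR class, was at 6.43 and 6.27, and WRKY35 at 2.48 and 2.46. Over all 8 genes 5 were lower and 3 higher, and the summed FPKM of the group was 81.1 in WT and 66.5 in mir163. Without WRKY22, the gene with the largest drop of the group, the other 7 summed to 58.3 in WT and 58.8 in mir163.

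Group IId, whose members bind calmodulin, held the most abundant WRKY transcripts. The median of their mean FPKM was 29.2, beside 6.09 for the 41 WRKY genes tested. WRKY15, a regulator of growth and of the response to salt and osmotic stress, led at 58.6 in WT and 41.3 in mir163 (1.42-fold lower, unadjusted p of 0.276 in the authors' deposited table). WRKY11 and WRKY17, negative regulators of basal resistance to Pseudomonas syringae, were at 31.9 and 30.1 in WT against 36.8 and 32.2. WRKY7 stood at 26.8 and 27.7, WRKY39, known from heat responses, at 23.99 and 23.3, and WRKY21 at 17.3 and 16.3. Thus 5 of the 6 (83.3%) lay within 1.2-fold between genotypes, beside 74.4% of all genes tested, and WRKY15 was the exception.

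In group I 6 of 7 genes (85.7%) lay within 1.2-fold, beside 74.4% of all genes tested. At a mean FPKM of 5 to 20, where most of the group lay, the share of all genes was 79.5%. WRKY20 was highest at 17.3 in WT and 17.2 in mir163. WRKY33, needed for camalexin synthesis and for resistance to necrotrophic fungi, was at 10.9 and 11.4, although it overlaps 2 annotated genes. WRKY3, also linked to necrotroph resistance, stood at 8.81 and 9.87, and WRKY25, a factor of heat and salt tolerance, at 9.21 and 9.07. The exception was WRKY26, which acts with WRKY25 in heat tolerance, at 6.29 and 4.59 (unadjusted p of 0.337 in the authors' deposited table). WRKY2, which polarises the zygote, was at 4.39 and 5.06, and WRKY32 at 5.91 and 6.27.

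In group IIb 5 of 7 genes (71.4%) had lower values in mir163, beside 48.7% of all genes tested. Of the 5, WRKY61 and WRKY36 had unadjusted p-values of 0.991 and 0.788 in the authors' deposited table. WRKY47 led, at 20.9 in WT and 13.4 in mir163, a 1.56-fold difference with an unadjusted p of 0.136 in the authors' deposited table. WRKY6, which represses the phosphate exporter gene PHO1, had a higher value in mir163, at 8.27 and 10.6. WRKY31, its closest relative among the WRKY proteins of the table, stood at 1.80 and 1.44. WRKY36, a repressor of HY5 in light signalling, was at 7.96 and 7.38, and WRKY9 at 3.40 and 2.81. The remaining WRKY72 and WRKY61 were within 1.2-fold, at 2.79 and 1.68 in WT against 3.09 and 1.67.

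Group IIc had the most members, 12, with a median mean FPKM of 1.92 over the 10 tested and 1.78 over all 12. WRKY57, which confers drought tolerance and restrains senescence induced by jasmonate, was highest at 21.5 in WT and 15.6 in mir163. WRKY45, an activator of the phosphate transporter gene PHT1;1, was at 7.86 and 9.40. WRKY28, an activator of the salicylic acid synthesis gene ICS1, stood at 3.72 and 2.41 (1.55-fold lower, unadjusted p of 0.219 in the authors' deposited table), and WRKY24 at 2.71 and 2.83. WRKY50 and WRKY51, the pair with the variant heptapeptide and with a role in defence signalling by jasmonate, were both lower in mir163, at 2.04 and 0.699 in WT against 1.37 and 0.375. In contrast WRKY13 and WRKY12, regulators of stem development and flowering, had higher values, WRKY13 at 0.570 and 1.54 and WRKY12 at 0.342 and 0.652. The unadjusted p of WRKY13 was 0.0869, the second lowest of the 44 genes. WRKY51 and WRKY12 were below the tested level in both genotypes. The other 4 were low as well, WRKY49 at 1.74 and 2.20, WRKY23 at 1.98 and 1.74, WRKY56 at 1.66 and 1.36, and WRKY48 at 1.55 and 1.62.

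Group III factors, of which several are induced by salicylic acid, were expressed at low levels, with a median mean FPKM of 2.71 over the 3 tested and 1.06 over all 5. WRKY53, a regulator of leaf senescence, stood at 2.72 in WT against 3.73 in mir163, and WRKY70, an activator of salicylic acid responses and repressor of jasmonate responses, at 2.05 and 3.37 (1.64-fold higher). The ratio of WRKY53 was 1.37 with an unadjusted p of 0.821 in the authors' deposited table, whereas WRKY70 had a p of 0.208. An annotated gene overlaps WRKY53 over 341 bases. WRKY46, which acts in lateral root growth under osmotic stress, was at 1.09 and 1.03. WRKY30 and WRKY41, both below the tested level, were at 0.974 and 0.826 in WT and at 0.464 and 0.331 in mir163.

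The 3 partners of WRKY proteins gave no call. MEKK1 stood at 17.04 in WT and 13.2 in mir163, MKS1 at 7.42 and 6.65, and ESP at 1.55 and 2.50. MKS1 overlaps 2 annotated genes.

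Summed over the 45 WRKY genes, the FPKM was 433 in WT against 398 in mir163, a difference of 35.4. WRKY15 and WRKY22 differed by 17.3 and 15.02, and WRKY47 and WRKY57 by 7.49 and 5.90. These genes had the largest drops of the 45 in these same data. The other 41 together were at 309.7 in WT and 320.0 in mir163, and their higher sum in mir163 follows from that choice. The sum over all genes of the table was 1136680 in WT and 1036970 in mir163. The ratio of mir163 to WT was 0.912 for this sum and 0.918 for the 45 WRKY genes.

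**Figure D3:**
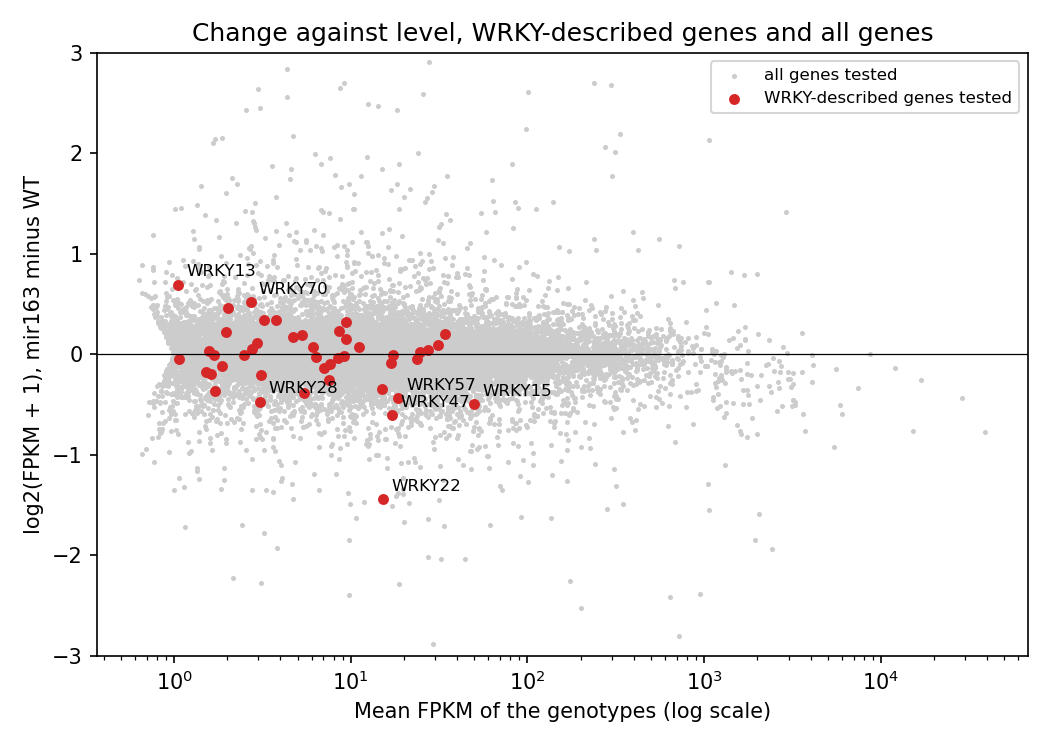
Change in log2(FPKM + 1), mir163 minus WT, against mean FPKM on a log axis, for all 19264 genes tested (grey) and the 44 WRKY-described genes tested (red). The 27 genes beyond 3 on the y axis are not drawn, and WRKY22 at -1.44 is the red point farthest from 0.

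The 44 WRKY-described genes tested varied more between the genotypes than genes of the table as a whole, and were also lower in level. Of the 44 genes, 25 (56.8%) lay within 1.2-fold, beside 74.4% of all genes tested. The share was 62.7% (32 of 51) for all numbered WRKY genes tested. It was 80% (8 of 10) for those without the word in their description. The median mean FPKM of the 44 was 6.22, beside 13.1 for all genes tested. At a mean FPKM under 5 the shares within 1.2-fold were 8 of 19 (42.1%) and 59.03%, and between 5 and 20 they were 12 of 19 (63.2%) and 79.5%. At 20 or more they were 5 of 6 (83.3%) and 79.3%. The median absolute change in log2(FPKM + 1) was 0.17 for the 44 genes and 0.12 for all genes. No test was made of these shares.

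Close relatives were set side by side. Among the 55 WRKY proteins of the table, 17 pairs were each other's nearest by identity, between 35.9% and 72.7%, and both genes were tested in 14. The difference had the same sign in 6 pairs and opposite signs in 8. No such share was computed for pairs of other genes, and several of the signs rest on very small changes. WRKY11 and WRKY17, at 72.7% identity, had differences of 0.20 and 0.10 in log2(FPKM + 1), and WRKY60 and WRKY18 of 0.05 and 0.14. WRKY21 and WRKY39 stood at -0.09 and -0.04, WRKY14 and WRKY35 at -0.26 and -0.01, and WRKY25 and WRKY26 at -0.02 and -0.38. WRKY23, which is induced by auxin and at nematode feeding sites, was at -0.12 beside WRKY28 at -0.47. Opposite signs were found for WRKY3 and WRKY4 (0.15 and -0.03), for RRS1 and TTR1 (0.13 and -0.03), and for WRKY45 and WRKY75 (0.23 and -0.40). They were also found for WRKY6 and WRKY31 (0.32 and -0.20), WRKY24 and WRKY56 (0.05 and -0.17), WRKY65 and WRKY69 (0.02 and -0.04), and WRKY72 and WRKY61 (0.11 and -0.0042). WRKY22 and WRKY29 were the farthest apart, by 1.78, while the median over the 14 pairs was 0.20.

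**Figure D4:**
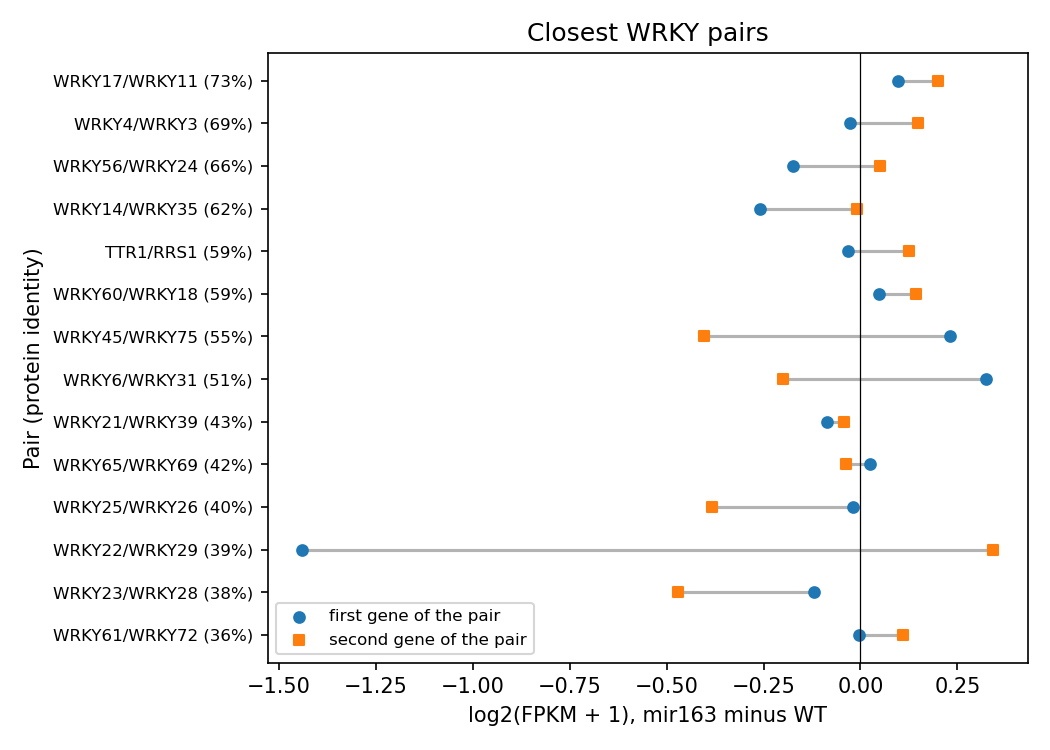
Change in log2(FPKM + 1), mir163 minus WT, for the 14 nearest pairs of WRKY proteins with both genes tested, ordered from the highest protein identity (in percent beside the names) to the lowest. A line joins the genes of a pair, and the line of WRKY22 and WRKY29 is the longest, at 1.78.

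The 250 bases before the annotated start of each gene were searched for the W box, TTGACC or TTGACT on either strand. At least 1 match lay before 18 of the 45 WRKY genes (40%), and 2 or more before 9 (20%). Over all 27443 protein-coding genes these shares were 28.4% and 6.18%. A match is not evidence of binding. The region of WRKY22 (chr4:524250-524499, minus strand) held none, that of WRKY29 (chr4:12291382-12291631, plus strand) held 2, and that of WRKY30 (chr5:8154711-8154960, minus strand) held 3, the most of any of the 45. These are shown 5′ to 3′ from TAIR10.1, with W boxes in capitals, since WRKY22 and WRKY29 are nearest relatives with opposite signs and WRKY30 has the densest set.
WRKY22: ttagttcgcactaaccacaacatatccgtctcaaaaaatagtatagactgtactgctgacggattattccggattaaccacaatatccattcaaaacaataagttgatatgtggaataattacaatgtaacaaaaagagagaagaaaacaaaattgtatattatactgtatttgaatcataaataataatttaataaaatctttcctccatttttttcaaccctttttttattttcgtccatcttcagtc
WRKY29: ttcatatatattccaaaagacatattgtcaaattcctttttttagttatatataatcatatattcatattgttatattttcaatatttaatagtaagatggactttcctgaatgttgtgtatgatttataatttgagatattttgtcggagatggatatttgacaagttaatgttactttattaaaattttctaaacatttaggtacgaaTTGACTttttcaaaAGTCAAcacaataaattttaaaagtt
WRKY30: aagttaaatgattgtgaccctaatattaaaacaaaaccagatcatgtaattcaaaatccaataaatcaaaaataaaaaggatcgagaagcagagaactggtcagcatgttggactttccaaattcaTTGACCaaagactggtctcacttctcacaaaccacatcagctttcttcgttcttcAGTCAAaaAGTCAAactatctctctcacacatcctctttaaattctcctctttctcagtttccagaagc

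Among the WRKY-described genes tested and at least 1.5-fold apart, WRKY28 and ESP had 1 W box in this window, and WRKY22, WRKY13, WRKY70 and WRKY47 had 0. Of the 4 genes below the tested level, all also at least 1.5-fold apart, WRKY30 had 3, WRKY41 had 2, WRKY12 had 1 and WRKY51 had 0. WRKY15 and WRKY33 each had 2.

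The 10 numbered WRKY genes without the word in their description had 8 (80%) within 1.2-fold between genotypes, beside 74.4% of all genes tested. They had 0 at an unadjusted p under 0.05. They include all 3 genes of group IIa, which act together as regulators of defence and abscisic acid responses. WRKY60 was at 9.96 in WT and 10.3 in mir163, WRKY18 at 6.69 and 7.49, and WRKY40 at 3.79 and 3.27. In group I, ZAP1 (WRKY1) stood at 18.8 and 21.2, WRKY4 at 11.2 and 10.97, WRKY19 at 3.67 and 3.43, and TTG2 (WRKY44), which acts in trichomes and the seed coat, at 1.87 and 1.99. RRS1 (WRKY52), an immune receptor with a WRKY domain, was at 3.48 and 3.88. The exceptions were in group IIc, WRKY75 at 4.77 and 3.36 and WRKY43 at 1.08 and 0.612 (1.76-fold lower). WRKY43 was tested through its WT value only, so the filter fixed its direction. The lowest unadjusted p of the 10 in the authors' deposited table was 0.365, for WRKY75.

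Genes that act above, beside and below the WRKY factors gave no call over all genes, and the share called at an unadjusted p under 0.05 was 0.67% higher and 0.327% lower over the whole table, as above. Of 18 genes of the MAP kinase cascade and its phosphatases, 17 were tested, 7 higher and 10 lower, with a median change of -0.02 in log2(FPKM + 1). MPK6 and MPK3, which phosphorylate WRKY33, were at 52.3 and 41.1 in WT against 49.9 and 42.6. MKK9 had the largest ratio upward, at 5.46 and 9.26, and MEKK1 the largest downward.

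VQ-motif proteins bind WRKY domains and alter their activity. Of 15 listed, 11 were tested, 4 higher and 7 lower, with a median of -0.18 and 0 at an unadjusted p under 0.05. VQ4 was the most abundant at 77.1 in WT against 58.8 in mir163, and IKU1, which acts with WRKY10 in seed growth, was at 17.1 and 13.3. VQ11 had the highest ratio, at 6.11 and 8.77, and VQ10 the lowest, at 1.08 and 0.451. VQ10, 1 of the 7 lower, was tested through its WT value only, so the filter fixed its direction.

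Of 16 genes of pattern-triggered immunity 13 were tested, 7 higher and 6 lower, with a median of 0.06. The coreceptor BAK1 was at 23.8 in WT against 24.8 in mir163, and the oxidase RBOHD at 18.1 and 18.9. PROPEP2, a precursor of a danger peptide, had the highest ratio, at 1.09 and 1.55, and CYP81F2, of indole glucosinolate metabolism, the lowest, at 3.72 and 2.76. FRK1, a kinase gene used as a readout of WRKY22 and WRKY29 activity, was below the tested level in both genotypes, at 0.844 and 0.488, and is named here after its values were seen. Camalexin synthesis genes were all within 1.2-fold, as were 74.4% of all genes tested. Of the 7, 5 were higher and 2 lower, with GGP1 at 148 and 163.3, GSTF6 at 75.2 and 76.1 and CYP79B3 at 62.1 and 57.4.

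Of 20 salicylic acid genes listed 13 were tested, 4 higher and 9 lower, with a median of -0.04. Of the 13, 11 (84.6%) lay within 1.2-fold, beside 74.4% of all genes tested. TGA5, a partner of the receptor NPR1, was at 12.4 in WT against 12.1 in mir163, and NPR1 at 9.75 and 11.2. ICS1, the main synthesis gene, stood at 10.04 and 7.66, and the marker gene PR5 at 2.88 and 4.05.

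The leaf senescence list, which holds targets and marker genes of senescence regulators, had lower values in 5 of 6 genes tested and a median of -0.25. Over all genes tested, 48.7% were lower and the median was 0.0064. Of the 6, 3 (50%) lay within 1.2-fold, beside 74.4% of all genes tested. SEN1, a gene induced in darkness and senescence, was at 237 in WT and 97.8 in mir163, 2.42-fold lower, with an unadjusted p of 0.0213 in the authors' deposited table and an adjusted p of 0.9996 by Benjamini-Hochberg over all genes. SAG21 was at 364 and 234 (unadjusted p of 0.173), and SAG13, the gene with a higher value, at 2.43 and 2.88. Of the other 3, ORE1 stood at 13.3 and 10.96, NAP at 12.2 and 10.2 and NYE1 at 13.4 and 12.7. Their unadjusted p-values in the authors' deposited table were 0.499, 0.539 and 0.855. Of 10 trichome and seed coat genes 7 were tested, 4 higher and 3 lower, with TTG1 at 35.5 and 28.8, CPC at 7.19 and 9.04 and TRY at 6.61 and 4.83. GL1, 1 of the 4 higher, was tested through its mir163 value only.

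**Figure D5:**
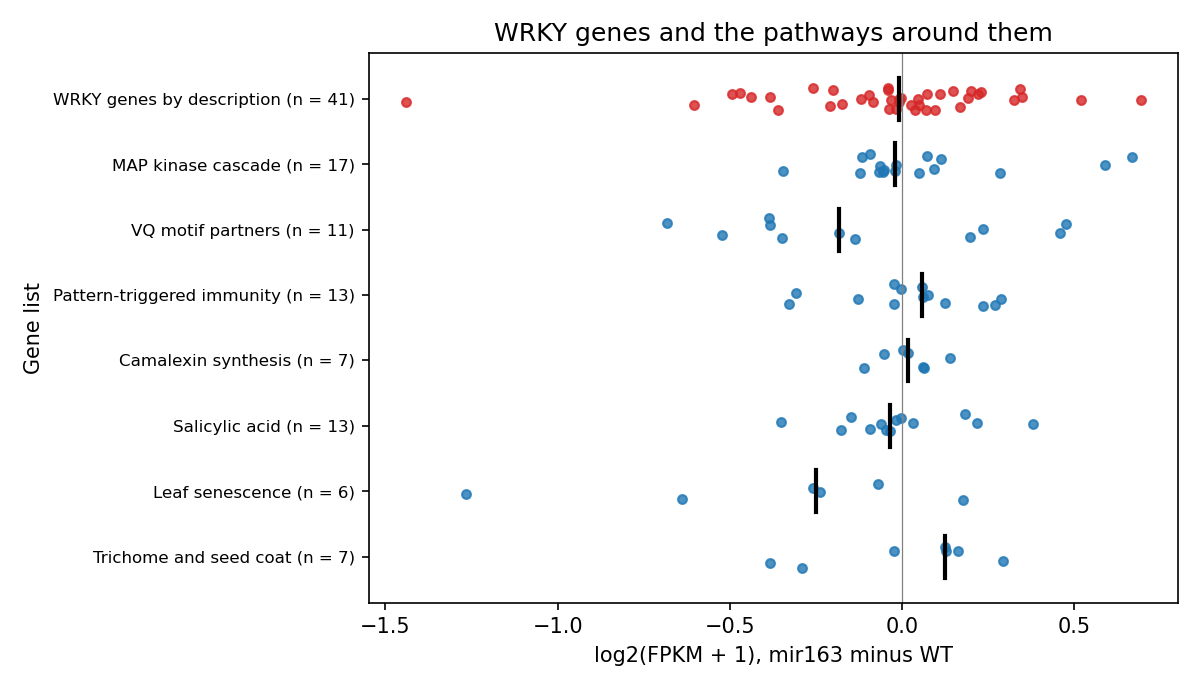
Change in log2(FPKM + 1), mir163 minus WT, for the 41 tested WRKY genes chosen by description (red) and for the tested genes of 7 pathway lists (blue). Black bars are medians and vertical scatter only separates the points. WRKY22 at -1.44 and SEN1, of the leaf senescence list, at -1.27 lie farthest from 0.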

How the data were processed

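RNA was sequenced from whole seedlings, in 3 WT and 3 mir163 libraries. Per the submitters' processing notes, the tools were TopHat, Cufflinks and bcl2fastq 2.17.1.14 and the build was TAIR10, with no roles stated. Per the file headers, the authors gave FPKM for each genotype, a log2 fold change of mir163 over WT, and a p-value that is unadjusted. Neither the test behind it nor the way libraries were combined is stated in the labels, so what spread it measures is unknown. FPKM is relative to each library's total, so abundant transcripts can shift the rest.

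Genes with an FPKM of at least 1 in a genotype were tested (19264 of 19955), and Benjamini-Hochberg adjustment was applied to the deposited p-values over these genes, at 0.05. Ratios are of plain FPKM, and other differences are in log2(FPKM + 1), where low genes appear closer than they are. The genes, gene lists and rules were chosen with earlier results of these data known. Named genes are the 4 highest of each WRKY group, those at least 1.5-fold apart or with an unadjusted p under 0.05, the nearest pairs, and in each list the 2 highest, the extreme ratios and those with an unadjusted p under 0.05. Other members and list genes were added after their values were seen. WRKY groups follow the published classification, not the descriptions, which place WRKY23 and WRKY45 in group I although each holds 1 heptapeptide. WRKY19, which the classification places in group I, also holds 1, so this count alone does not settle the group.

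Symbols, coordinates and sequences are from RefSeq TAIR10.1, where 19672 identifiers matched. Of the 48 genes, 9 overlap another annotated gene, and unstranded counting could mix their reads. Python 3.11.15, numpy 2.4.6, pandas 2.3.3, scipy 1.17.1, Biopython 1.88 (BLOSUM62) and matplotlib 3.10.9 were used. Alternatives were median-ratio and quantile scaling, other pseudocounts, a fold of 2, no filter or a minimum FPKM of 5, other member sets and rescaled p-values.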

Additional observations from a re-analysis of the deposited data

How the results depend on the processing

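No paired analysis was possible because replicates are combined into 1 value for each genotype, and leaving out single libraries was not run either. Over all genes, 0 WRKY-described genes were called (Benjamini-Hochberg on the authors' p-values) with no filter, a minimum FPKM of 5, or either other member set, and WRKY22 was the 1 gene at an unadjusted p under 0.05 in each. Where the chi-square values of all genes were divided by 0.192, which sets the median p to 0.5, 3 were called. The error rate of such calls is unknown. WRKY22 and WRKY47 were lower (4.55% of the 44 tested, beside 1.38% of all genes). WRKY13, whose direction the filter fixed, was higher (2.27%, beside 1.95%). This alternative, the member set that adds RefSeq symbols and those for WRKY22 were chosen after seeing the data. The count of genes at least 1.5-fold higher, 3, became 0 at a minimum FPKM of 5, 1 at a fold of 2 and 1 with a pseudocount of 1 in the ratio. The count at least 1.5-fold lower, 3, became 6 with no filter, which adds low genes, and 1 at a fold of 2. The median log2 change was -0.0136 with no filter, -0.0251 at a minimum of 5, -0.0142 with median-ratio scaling, -0.0336 with quantile normalization and -0.0051 with a pseudocount of 5, all close to 0. WRKY22 stood between -1.12 (pseudocount 5) and -1.55 (no pseudocount). Quantile normalization left 19 genes higher and 25 lower. With depth unknown, differences of genes near an FPKM of 1 carry no interval.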
